A study of Mus musculus with 15 samples.

Results

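The effect of milk composition on gene expression was compared between CD24- preadipocytes and CD24+ progenitors of mouse subcutaneous fat. The milk effect of a gene is its level after low-ratio milk less its level after high-ratio milk, on the log2 scale, where the ratio is that of n6 to n3 polyunsaturated fatty acids. The quantity described here, called the difference of milk effects, is the milk effect in preadipocytes less the milk effect in progenitors. It uses all 15 of the 15 samples of the series and the 21792 gene IDs listed for both populations. Of these, 15354 had a mean of at least 10 normalized counts in each population and were tested. Cross-fostered wildtype C57Bl/6 pups had received milk of a Low n6/n3 or a High n6/n3 ratio, called low-ratio and high-ratio milk here, and precursor cells were sorted from subcutaneous adipose tissue by flow cytometry. The groups were preadipocytes on low-ratio milk (4 libraries), preadipocytes on high-ratio milk (3 libraries), progenitors on low-ratio milk (4 libraries) and progenitors on high-ratio milk (4 libraries). The labels give the exposure as 12 days in 1 protocol and 10 days in another, and do not say how many pups went into a sample. For the 4 preadipocyte samples on low-ratio milk 1 label gives the other milk, and the sample characteristic for the ratio was followed.

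Adipocyte precursors are fibroblast-like cells of the fat stroma, and in mice CD24+ progenitors can give rise to CD24- preadipocytes, which stand closer to the fat-storing adipocyte. Linoleic acid (n6) and alpha-linolenic acid (n3) are taken up from milk and are lengthened and desaturated by the same enzymes into longer polyunsaturated fatty acids. Fatty acids are burned in mitochondria by beta-oxidation, which feeds electrons to the respiratory chain. The chain is built from a few subunits that the mitochondrial genome encodes and from many that the nucleus encodes. The title of the series names lipid oxidation in adipocyte precursors as its question.

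Estimated depth was between 13.8 and 68.8 M reads, and both ends of that range were preadipocyte libraries on high-ratio milk (1015 and 1017). Depth was estimated from the step between low values. The share of low values on whole steps was 39.56% in 1015 and 43.68% in 1017, the lowest of the 15 libraries, so these estimates are the least certain. Cd24a, the gene behind the sort, had 562 to 681 normalized counts in preadipocytes on low-ratio milk and 587 to 719.8 on high-ratio milk. In progenitors Cd24a had 1927 to 2418 on low-ratio milk and 1836 to 2676 on high-ratio milk. The direction of the sort was thus visible, although the populations were normalized separately and their levels were not tested against each other. All 8 fibroblast and precursor markers were measured, and their summed level is given further down. Marker levels of other cells that the gate could also hold are given beside the calls further down. In bulk samples fewer cells of a type and less RNA per cell cannot be told apart. Values below are normalized counts and, within a group, follow the library numbers 108, 114, 119 and 133 on low-ratio milk and 1015, 1017, 1018 and 1019 on high-ratio milk, with no preadipocyte library 1018.

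The milk effect differed between the populations for 350 genes at an adjusted p of at most 0.05 (limma over all 15 libraries, Benjamini-Hochberg), which is 2.28% of the genes tested. It was higher in preadipocytes for 96 genes (0.625%) and lower for 254 (1.65%). The lower group held 10 of the 13 protein-coding genes of the mitochondrial genome and 22 of 79 cytosolic ribosomal protein genes. The higher group held the fatty acid desaturase Fads2, the replication fork gene Donson, the axonemal dynein Dnah2 and both chains of type I collagen. Without adjustment, 2704 genes had a p under 0.05, with 1381 of them higher and 1323 lower. The test did not take the library numbers, which recur in both populations, as pairs. With a block for library numbers 43 genes were called, 8 higher and 35 lower, of which 39 were among the 350. With the block and a correction for GC content and transcript length together, 0 were called. Of the 28 called genes described with values below, 16 were not called under the block, and all 16 are named further down.

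Side by side, the milk effect itself was called for 1264 genes in preadipocytes (8.23%), 479 higher (3.12%) and 785 lower (5.11%), and for 0 genes in progenitors (0%) by limma. The preadipocyte count was 465 with each population fitted alone and 1968 with array weights. It was 687, 775, 384 and 651 without preadipocyte libraries 119, 133, 1015 and 1017, left out singly. The progenitor count was 2 without progenitor library 108, and 1 without 119, 133 or 1019. In progenitors 1095 genes had an unadjusted p under 0.05, and the authors' deposited table lists 101 of 17389 genes at an adjusted p of at most 0.05, 61 higher and 40 lower. For preadipocytes the authors' deposited table lists 1834 of 15470 genes, 690 higher and 1144 lower. Over the 96 genes with a higher difference the median milk effect was 0.51 in preadipocytes and -0.22 in progenitors. Over the 254 genes with a lower difference it was -0.98 in preadipocytes and 0.09 in progenitors. The difference and the milk effects come from the same libraries, so these medians describe the called genes and are no separate support. Over all genes tested the median difference was 0.05.

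**Figure D1:**
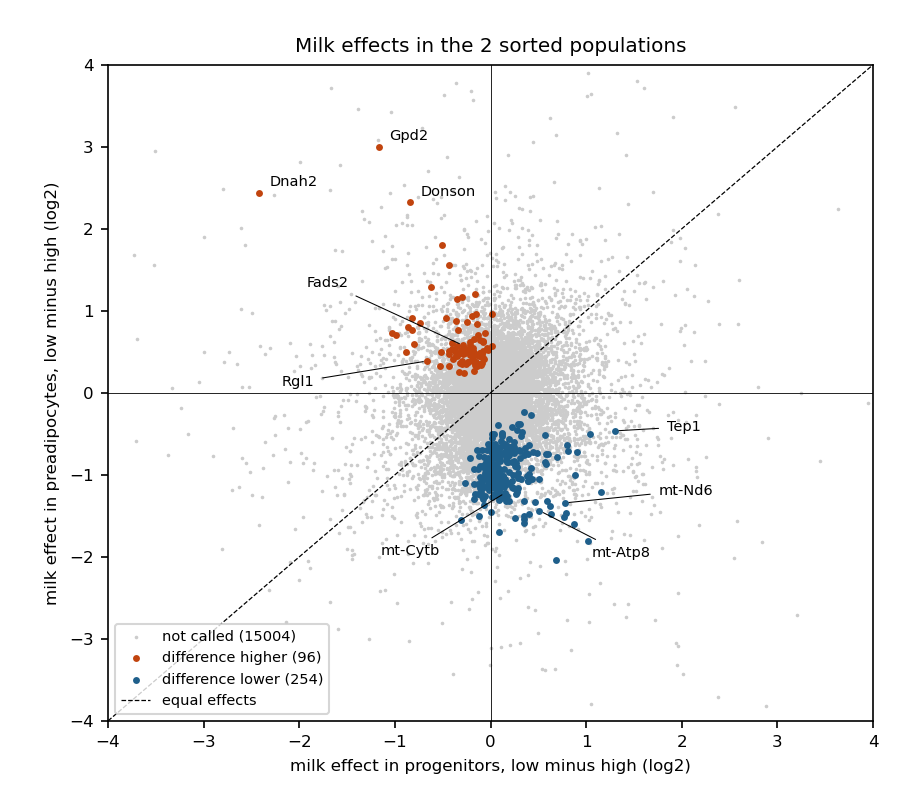
Milk effect in preadipocytes (vertical, log2, low-ratio minus high-ratio milk) against milk effect in progenitors (horizontal, same unit) for the 15354 genes tested, of which 19 lie beyond the axes. Red points are the 96 genes with a higher difference and blue points the 254 with a lower difference. The median milk effect of the blue genes is -0.98 in preadipocytes and 0.09 in progenitors, with Tep1 at 1.30 in progenitors, while Dnah2, Gpd2 and Donson lie above zero in preadipocytes and below it in progenitors.

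The count of calls depended on single libraries. It was 846 without preadipocyte library 1019 on high-ratio milk, and 70 and 95 without the other preadipocyte libraries on that milk, 1015 and 1017. Without preadipocyte libraries 119 and 133 on low-ratio milk, left out singly, it was 137 and 108. It was 215 without progenitor library 108 and 165 without 114 on low-ratio milk. Without progenitor libraries 1015, 1017, 1018 and 1019 on high-ratio milk, again left out singly, it was 218, 128, 177 and 184. Whichever library was left out, 54 genes were called in all 15 fits (0.352% of the genes tested), 9 higher and 45 lower.

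The mitochondrial genome encodes core subunits of complexes I, III, IV and V. Transcripts of its 13 protein-coding genes took a mean of 2.58% ± 0.211 of normalized counts in preadipocytes on low-ratio milk (SD, n = 4), against 5.28% ± 0.826 on high-ratio milk (SD, n = 3). In progenitors they took 2.40% ± 0.245 on low-ratio milk, against 1.91% ± 0.142 on high-ratio milk (SD, n = 4 each). By library the share was 2.46%, 2.86%, 2.60% and 2.38% in preadipocytes on low-ratio milk, against 5.94%, 5.56% and 4.36% on high-ratio milk. It was 2.30%, 2.57%, 2.62% and 2.10% in progenitors on low-ratio milk, against 2.08%, 1.89%, 1.92% and 1.73% on high-ratio milk. The milks did not overlap in either population, and they lay in opposite order. The difference of milk effects was -3.2 percentage points. In an exact two-sided permutation test over the library numbers present in both populations its p was 0.0571, the smallest that 4 and 3 numbers can give. That test takes the preadipocyte less the progenitor share within each number, so it pairs libraries by number, which the limma test does not.

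**Figure D2:**
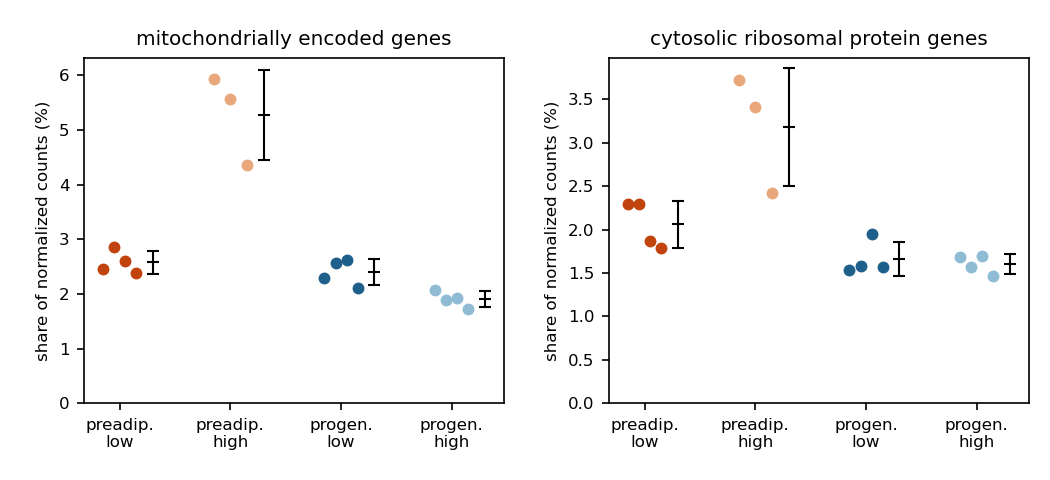
Share of normalized counts (%, vertical) taken by the 13 mitochondrially encoded genes (left) and by 79 cytosolic ribosomal protein genes (right) in each library, with the mean and SD of the group beside the points. Preadipocytes on high-ratio milk stand above the other groups in both panels, with library 1019 the lowest of the 3.

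All 13 genes had a difference below zero, with a median of -1.37, beside 0.05 over all genes tested. Their median milk effect was -1.01 in preadipocytes and 0.39 in progenitors. The 10 called genes were mt-Cytb, mt-Atp8, mt-Atp6, mt-Co1, mt-Nd1, mt-Nd2, mt-Nd4, mt-Nd4l, mt-Nd5 and mt-Nd6.

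mt-Cytb, cytochrome b of complex III (chrM:14145-15288, plus strand, GRCm38), had 152012, 187055, 157924 and 155034 normalized counts in preadipocytes on low-ratio milk, against 430696, 401019 and 311668 on high-ratio milk. In progenitors mt-Cytb had 144000.0, 161356, 180252 and 151659.7 on low-ratio milk, against 153996, 139273, 145796 and 131542 on high-ratio milk. For mt-Cytb the milks were far apart in preadipocytes and overlapped in progenitors. The difference was -1.37 ± 0.15 (log2 ± SE, limma adjusted p = 0.00184), from a milk effect of -1.22 in preadipocytes and 0.16 in progenitors.

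mt-Atp8, a subunit of ATP synthase, had 82638, 104339.7, 72297 and 90349 normalized counts in preadipocytes on low-ratio milk, against 298206, 240771 and 179608 on high-ratio milk. In progenitors mt-Atp8 had 97083, 104307, 97734 and 82698 on low-ratio milk, against 79539.8, 69477, 67800.5 and 52770.0 on high-ratio milk. For mt-Atp8 the milks did not overlap in either population and lay in opposite order. Its difference was -1.95 ± 0.23 (log2 ± SE, limma adjusted p = 0.00225).

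mt-Nd4l, a small membrane subunit of complex I, showed the same order, with 28967 to 41643 normalized counts in preadipocytes on low-ratio milk, against 70163 to 76565 on high-ratio milk. In progenitors mt-Nd4l had 42674 to 60886 on low-ratio milk, against 35705 to 42291 on high-ratio milk. Its difference was -1.48 ± 0.18 (log2 ± SE, limma adjusted p = 0.00225).

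mt-Atp8 and mt-Nd4l each share their last bases with the gene that follows on the same strand, so a read there fits either gene. Both genes are printed here from the GENCODE M21 transcripts on GRCm38, plus strand, with the bases shared with the next gene in capitals. For mt-Atp8 (chrM:7766-7969) these are 43 of 204 bases, shared with mt-Atp6. For mt-Nd4l (chrM:9877-10173) they are 7 of 297 bases, shared with mt-Nd4.
mt-Atp8: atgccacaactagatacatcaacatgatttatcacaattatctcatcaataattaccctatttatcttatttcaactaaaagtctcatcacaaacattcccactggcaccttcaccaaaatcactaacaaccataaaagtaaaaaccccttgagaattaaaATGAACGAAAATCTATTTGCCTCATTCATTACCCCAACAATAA
mt-Nd4l: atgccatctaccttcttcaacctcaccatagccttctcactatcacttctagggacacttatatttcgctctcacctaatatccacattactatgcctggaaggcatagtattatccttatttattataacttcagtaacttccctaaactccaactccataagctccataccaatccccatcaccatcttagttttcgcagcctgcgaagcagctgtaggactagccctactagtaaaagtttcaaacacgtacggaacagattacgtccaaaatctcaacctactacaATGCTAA

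mt-Nd6, the complex I subunit encoded on the other strand (chrM:13552-14070, minus strand, GRCm38), had 854, 745, 659.6 and 717 normalized counts in preadipocytes on low-ratio milk, against 2446, 1755 and 1545 on high-ratio milk. In progenitors mt-Nd6 had 1019.7, 1144, 780.5 and 665 on low-ratio milk, against 609, 488, 556 and 423 on high-ratio milk. For mt-Nd6 the milks were again apart in both populations and in opposite order, and the difference was -2.12 ± 0.27 (log2 ± SE, limma adjusted p = 0.00266). Since the strand setting of the counting is not given in the sources used here, its reads cannot be told apart from those of transcripts on the opposite strand. mt-Co1, the catalytic subunit of complex IV, had a difference of -1.08 ± 0.14 (adjusted p = 0.00305), and mt-Nd5 of complex I had one of -1.14 ± 0.14 (adjusted p = 0.00231).

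mt-Co3, mt-Nd3 (adjusted p = 0.0762) and mt-Co2 (adjusted p = 0.319) were not called. mt-Co2 was listed at 0 in 6 libraries and can be a failed estimate. Its values were 45.7, 0, 588 and 559 normalized counts in preadipocytes on low-ratio milk, against 892, 646 and 2517 on high-ratio milk. In progenitors they were 0, 604, 2091 and 0 on low-ratio milk, against 0, 93.7, 0 and 0 on high-ratio milk.

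Of the 10 called genes, 8 were called whichever library was left out. mt-Nd4 was called in 7 and mt-Atp6 in 4 of the 15 fits that leave out a library. Mitochondrially encoded genes have little G and C (median 37.1%, beside 50.3% over all genes tested), and GC content moved with the difference, as given further down. With a correction of each library for GC content and transcript length, the median of the 13 genes was -0.63 and 1 was called, mt-Cytb (adjusted p = 0.0332). The adjusted p was then 0.152 for mt-Atp8, 0.0694 for mt-Nd4l, 0.0614 for mt-Nd6, 0.0552 for mt-Co1 and 0.163 for mt-Nd5.

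Nuclear genes for the respiratory chain were called lower in smaller shares, and none was called higher. Over all genes tested 1.65% were called lower and 0.625% higher. For complex I, 4 of 36 genes had a lower difference (Ndufb3, Ndufa1, Ndufs6 and Ndufa6), and the median over the list was -0.16. For complexes II to V, 8 of 40 had a lower difference (Uqcrb, Cox7b, Atp5l, Uqcrh, Uqcr10, Cox6c, Cox7a2 and Cox7c), with a median of -0.14. The difference was below zero for 25 of the 36 genes and 27 of the 40, and the median over all genes tested was 0.05. The milk effect in preadipocytes was called lower for 14 of the 36 and 10 of the 40, and called higher for 0 in either list. Over all genes tested it was called lower for 5.11% and higher for 3.12%.

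Uqcrb, a subunit of complex III (chr13:66900617-66905378, minus strand, GRCm38), had 1107, 1202, 931 and 1149.6 normalized counts in preadipocytes on low-ratio milk, against 3518, 2602 and 1989.8 on high-ratio milk. In progenitors Uqcrb had 784, 861, 985 and 982 on low-ratio milk, against 894, 869.7, 966 and 843 on high-ratio milk. For Uqcrb the milks were apart in preadipocytes and overlapped in progenitors. Its difference was -1.28 ± 0.22 (log2 ± SE, limma adjusted p = 0.0144). Ndufb3 of complex I had a difference of -1.29 ± 0.22 with the same adjusted p, and Cox7b of complex IV one of -1.50 ± 0.29 (adjusted p = 0.0212).

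Ndufb3 and Uqcrb were called whichever library was left out, but not with a block for library numbers. Cox7b was not called without preadipocyte library 1017 on high-ratio milk (adjusted p = 0.0556). Over complexes II to V, 10 genes were called without preadipocyte library 1019, and 1 to 5 without any 1 of preadipocyte libraries 119, 133, 1015 and 1017 or progenitor libraries 114, 119, 133, 1015, 1017, 1018 and 1019. Over complex I, 11 were called without preadipocyte library 1019, and 1 or 2 without any 1 of preadipocyte libraries 119, 133, 1015 and 1017 or progenitor libraries 114, 119, 133, 1017, 1018 and 1019.

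Genes for ribosomal proteins were called in the same direction. These proteins form the translating ribosome of the cytosol, and 22 of their 79 genes had a lower difference while 0 had a higher one. Over all genes tested the shares were 1.65% and 0.625%. The median over the 79 genes was -0.65, from a median milk effect of -0.62 in preadipocytes and 0.01 in progenitors. Their summed share of normalized counts was 2.29%, 2.30%, 1.87% and 1.79% in preadipocytes on low-ratio milk, against 3.72%, 3.41% and 2.42% on high-ratio milk. In progenitors it was 1.54%, 1.58%, 1.95% and 1.57% on low-ratio milk, against 1.68%, 1.57%, 1.70% and 1.46% on high-ratio milk. The milks were apart in preadipocytes, narrowly for library 1019, and overlapped in progenitors. The difference was -1.21 percentage points within library numbers (exact two-sided permutation p = 0.0571, the smallest possible).

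Rps12, a protein of the small ribosomal subunit (chr10:23785183-23787275, minus strand, GRCm38), had 9893, 12653, 8553 and 9069 normalized counts in preadipocytes on low-ratio milk, against 22332, 20994 and 15338 on high-ratio milk. In progenitors Rps12 had 10849.9, 10646, 12203 and 9766 on low-ratio milk, against 10496, 9521, 9801 and 8281 on high-ratio milk. For Rps12 the milks were apart in preadipocytes and overlapped in progenitors. Its difference was -1.15 ± 0.20 (log2 ± SE, limma adjusted p = 0.0146). Rps3a1, of the same subunit, had a difference of -1.11 ± 0.20 (adjusted p = 0.0157).

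Both genes were called whichever library was left out, and also with the correction for GC content and length (adjusted p = 0.0246 and 0.0332), under which 19 genes of the list were called. The count of the list was 39 without preadipocyte library 1019 on high-ratio milk and 4 without either 1015 or 1017. It was 12 without 119 and 7 without 133 of the preadipocytes on low-ratio milk, and 12 without progenitor library 114 on low-ratio milk and 11 without 1017 on high-ratio milk. Many ribosomal protein genes have near-identical processed copies in the genome, and how the counting split reads among them is not given in the sources used here.

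Mitochondrial ribosomal protein genes, which serve translation inside the organelle, gave 5 lower of 78, beside 1.65% of all genes tested, and a median of -0.16. Mrpl42 had 679 to 858 normalized counts in preadipocytes on low-ratio milk, against 1466 to 1796 on high-ratio milk. In progenitors Mrpl42 had 706 to 787 on low-ratio milk, against 659 to 846 on high-ratio milk. Its difference was -1.07 ± 0.17 (log2 ± SE, limma adjusted p = 0.0101). The other called members were Mrpl39, Mrps33, Mrps28 and Mrpl9, and the count of the list was 12 without preadipocyte library 1019 on high-ratio milk. It was 2 or 3 without any 1 of preadipocyte libraries 114, 119, 133, 1015 and 1017 or progenitor libraries 114, 1017, 1018 and 1019.

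**Figure D3:**
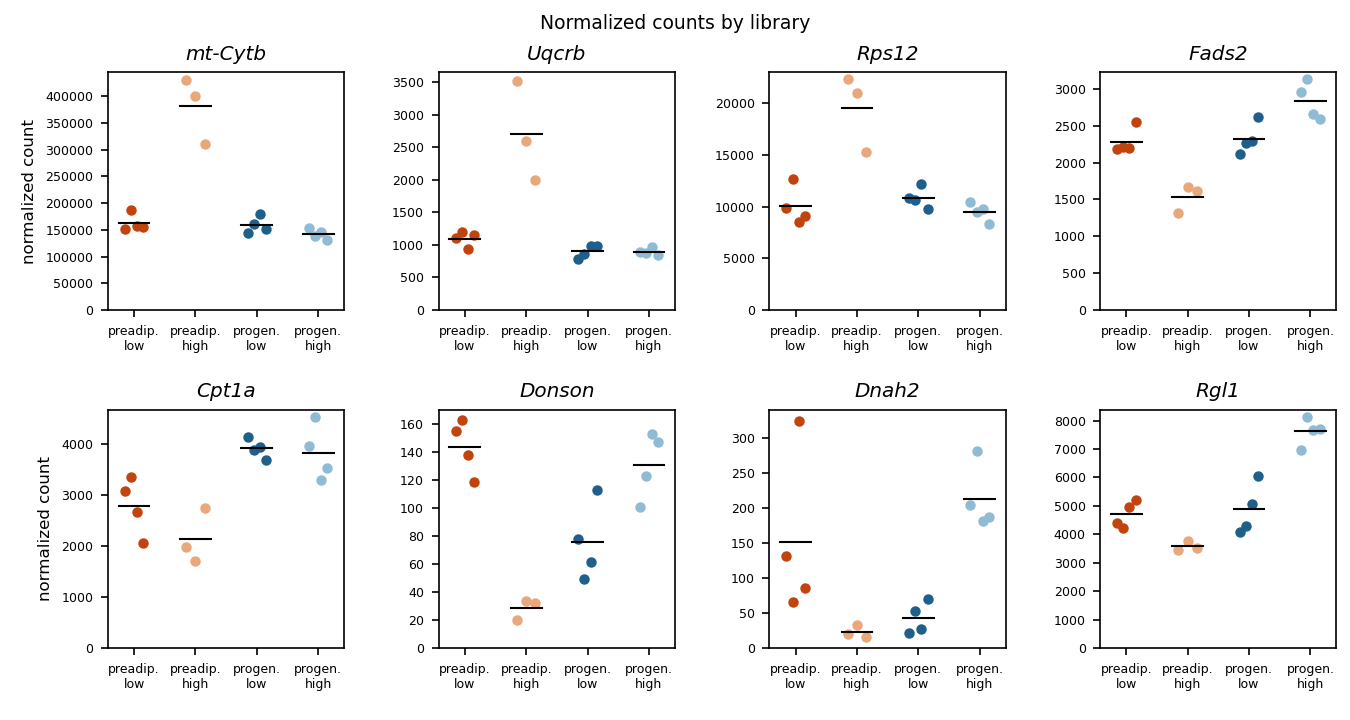
Normalized counts (vertical, linear, from 0) of 8 genes in each of the 15 libraries, with the group mean as a bar, for preadipocytes on low-ratio and high-ratio milk and progenitors on low-ratio and high-ratio milk. mt-Cytb, Uqcrb and Rps12 stand high in preadipocytes on high-ratio milk, Fads2, Donson, Dnah2 and Rgl1 have the milks in opposite order of means in the populations, and Cpt1a overlaps in both.

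Of 27 genes of mitochondrial fatty acid oxidation, 0 passed the test in either direction. In lists of this size a count of 0 or 1 is near the 2.28% called over all genes tested, and nothing is read from it here or in the lists below. Where a list below gave 2 or 3 calls, they describe the named genes and not the list. The median difference of the 27 genes was 0.21, beside 0.05 over all genes tested, with 21 above zero and 6 below. Without preadipocyte library 1015 on high-ratio milk the median was 0.03, and without 1017 there was 1 call, Slc22a5, the carnitine transporter of the plasma membrane (adjusted p = 0.0424, against 0.166 with all libraries).

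Cpt1a, which lets long-chain fatty acids enter mitochondria (chr19:3322334-3385733, plus strand, GRCm38), had 3078, 3365, 2666 and 2069 normalized counts in preadipocytes on low-ratio milk, against 1980.1, 1703 and 2752 on high-ratio milk. In progenitors Cpt1a had 4146, 3884, 3935 and 3696 on low-ratio milk, against 3967, 4529, 3298 and 3530.1 on high-ratio milk. For Cpt1a the milks overlapped in both populations, and the difference was 0.35 ± 0.24 (log2 ± SE, limma adjusted p = 0.484). Acadl, the long-chain acyl-CoA dehydrogenase, had the smallest p of the list. It had 1377, 1067, 1245 and 1153 normalized counts in preadipocytes on low-ratio milk, against 884, 952 and 1022 on high-ratio milk, and its difference was 0.47 ± 0.15 (adjusted p = 0.122).

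Peroxisomal oxidation gave 0 calls among 17 genes tested and a median of 0.12. PPARs, COUP-TFs and their coactivators, the regulators of lipid use, gave 0 calls among 20. Ppargc1a, the coactivator of mitochondrial biogenesis, had few counts, 5.01 to 15.7 in preadipocytes on low-ratio milk and 7 to 25.3 on high-ratio milk. In progenitors Ppargc1a had 2.81 to 82.8 on low-ratio milk and 2.45 to 13.8 on high-ratio milk, and its difference was -2.32 ± 1.29 (limma adjusted p = 0.381). Among PPAR targets of lipid use 0 of 18 were called. The fatty acid transporter Cd36 came nearest, at -0.96 ± 0.26 (adjusted p = 0.0623), and it was called in 2 of the 15 fits that leave out a library.

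Among the enzymes that make polyunsaturated fatty acids, 1 was called in the other direction. Fads2, the delta-6 desaturase that acts on both the n6 and the n3 precursor (chr19:10062765-10101746, minus strand, GRCm38), had 2187, 2204, 2194 and 2543 normalized counts in preadipocytes on low-ratio milk, against 1313, 1673 and 1612 on high-ratio milk. In progenitors Fads2 had 2122, 2263, 2289 and 2621 on low-ratio milk, against 2949.9, 3136, 2654 and 2594 on high-ratio milk. For Fads2 the milks were apart in preadipocytes, where low-ratio milk was higher. They overlapped in progenitors, where 3 of 4 libraries on low-ratio milk lay below all 4 on high-ratio milk.

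The difference for Fads2 was 0.86 ± 0.15 (log2 ± SE, limma adjusted p = 0.0144), from a milk effect of 0.58 in preadipocytes and -0.29 in progenitors. It was called whichever library was left out and with the correction for GC content and length (adjusted p = 0.0321), but not with a block for library numbers. It was the only 1 of 20 genes of fatty acid synthesis, desaturation and elongation to be called, and the median of that list was 0.23. Its neighbour in the pathway, the delta-5 desaturase Fads1, had a difference of 0.61 ± 0.21 (adjusted p = 0.152), and the stearoyl-CoA desaturase Scd2 one of 0.47 ± 0.17 (adjusted p = 0.151).

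Among genes that process oxygenated lipids, 1 of 25 was called. Ephx1, microsomal epoxide hydrolase, had 2697 to 2931 normalized counts in preadipocytes on low-ratio milk, against 1371 to 1959.7 on high-ratio milk. In progenitors Ephx1 had 2586 to 3063 on low-ratio milk, against 2625 to 3384 on high-ratio milk. Its difference was 0.84 ± 0.16 (log2 ± SE, limma adjusted p = 0.0217), and it was not called without preadipocyte library 1015 on high-ratio milk (adjusted p = 0.0546). Sterol synthesis, triglyceride storage and lipolysis, and fatty acid uptake gave 0 calls among 27, 20 and 19 genes.

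Pyruvate entry and redox shuttles gave calls in both directions. Mpc1, a subunit of the mitochondrial pyruvate carrier, had 598, 425, 343 and 488 normalized counts in preadipocytes on low-ratio milk, against 1232, 868 and 826 on high-ratio milk. In progenitors Mpc1 had 527, 548, 527 and 445 on low-ratio milk, against 295, 353, 469.8 and 460.4 on high-ratio milk. For Mpc1 the milks were apart in preadipocytes only. Its difference was -1.47 ± 0.29 (log2 ± SE, limma adjusted p = 0.0213), and it was not called without preadipocyte library 1015 on high-ratio milk (adjusted p = 0.0658).

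Mdh1, the cytosolic malate dehydrogenase of the malate-aspartate shuttle, had a difference of -0.78 ± 0.17 (adjusted p = 0.0280). The call was lost, at adjusted p from 0.0503 to 0.0868, without any of preadipocyte libraries 119, 133, 1015 and 1017 and progenitor libraries 114 and 1017. These were 2 of 29 genes of the citric acid cycle and pyruvate entry, beside 2.28% of all genes tested. The list median was 0.11, with 17 genes above zero and 12 below.

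Gpd2, the mitochondrial glycerol-3-phosphate dehydrogenase (chr2:57237635-57370719, plus strand, GRCm38), had 920.5, 1086, 1305 and 521 normalized counts in preadipocytes on low-ratio milk, against 101, 101 and 140.0 on high-ratio milk. In progenitors Gpd2 had 76.4, 119, 1357 and 548 on low-ratio milk, against 502, 625, 918 and 608 on high-ratio milk. For Gpd2 the milks were apart in preadipocytes. In progenitors on low-ratio milk libraries 108 and 114 lay far below 119 and 133, and the groups overlapped. Its difference was 4.17 ± 0.97 (log2 ± SE, limma adjusted p = 0.0370). The call held in 3 of the 15 fits that leave out a library, those without preadipocyte library 1019 or progenitor libraries 119 or 133. In the other 12 the adjusted p was between 0.0518 and 0.103, and with the correction for GC content and length it was 0.0614.

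Slc7a5, the large neutral amino acid transporter, is a case where the milks were apart in preadipocytes and the difference was not called. It had 1726, 617, 1679.7 and 1429.5 normalized counts in preadipocytes on low-ratio milk, against 196, 238 and 262 on high-ratio milk. In progenitors Slc7a5 had 1488, 415, 953 and 2628 on low-ratio milk, against 1407, 1486, 1688 and 388 on high-ratio milk. Its difference was 2.41 ± 0.79 (log2 ± SE, limma adjusted p = 0.122), and 0 of 24 amino acid transporters were called.

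Matrix genes were called in both directions. Both chains of type I collagen, Col1a1 and Col1a2, had a higher difference. They were the only 2 of 32 collagen chains called, beside 2.28% of all genes tested (list median 0.23, with 25 genes above zero and 7 below). Col1a2 was not called in 13 of the 15 fits that leave out a library (adjusted p from 0.0520 to 0.1195). Of 39 proteoglycans and matricellular proteins, Aspn, Lum, Ogn and Postn had a lower difference and Sparc, which binds collagen, a higher one. Over all genes tested 1.65% were lower and 0.625% higher. The median of these 39 genes was 0.17, with 25 genes above zero and 14 below. Sparc was not called in 14 and Ogn in 9 of the 15 fits. Among TGF-beta and BMP genes 2 of 39 had a higher difference, beside 0.625% of all genes tested. They were Fstl1, a secreted follistatin-like protein, and Bmp1, the protease that trims procollagen ends, which were not called in 3 and 10 of the fits.

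Col1a1 (chr11:94936224-94953042, plus strand, GRCm38) had 2346427, 2664542, 2774184 and 3155069 normalized counts in preadipocytes on low-ratio milk, against 1836636, 1827624 and 2254557 on high-ratio milk. In progenitors Col1a1 had 4072987, 3901274, 4093555 and 4643361 on low-ratio milk, against 4766387, 4838456, 4923926 and 4673417 on high-ratio milk. For Col1a1 the milks did not overlap in either population and lay in opposite order. Its difference was 0.67 ± 0.13 (log2 ± SE, limma adjusted p = 0.0217). It was not called without preadipocyte library 1015 or 1017 on high-ratio milk (adjusted p = 0.0675 and 0.0650). Under quantile normalization, where the most abundant gene of every library gets 1 value, its difference was 0.

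Aspn, asporin, a small leucine-rich proteoglycan (chr13:49544443-49567565, plus strand, GRCm38), had 43049.7, 39683, 30597 and 41451 normalized counts in preadipocytes on low-ratio milk, against 108326, 87643 and 69314 on high-ratio milk. In progenitors Aspn had 31356, 33249.8, 28286 and 34178 on low-ratio milk, against 31449.6, 32321, 31302 and 32636 on high-ratio milk. For Aspn the milks were apart in preadipocytes and overlapped in progenitors. Its difference was -1.17 ± 0.19 (log2 ± SE, limma adjusted p = 0.0101). Lum, lumican, had a difference of -0.65 ± 0.13 (adjusted p = 0.0219) and Postn, periostin, one of -0.59 ± 0.12 (adjusted p = 0.0232).

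Lum and Postn were not called without preadipocyte library 1015 (adjusted p = 0.0636 for Lum and 0.0696 for Postn), preadipocyte library 1017 (0.0578 and 0.0596) or progenitor library 1017 (0.0505 and 0.0546), all on high-ratio milk. The list gave 1 call without preadipocyte library 1015 or 1017 or progenitor library 1017, and 9 without preadipocyte library 1019. With the correction for GC content and length 0 of the 39 proteoglycan and matricellular genes were called. The adjusted p was then 0.331 for Aspn, 0.176 for Lum and 0.207 for Postn, and it was 0.0725 for Col1a1. The GC content of Aspn is 34.3% and that of Col1a1 56.4%.

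Among antioxidant genes 3 of 34 had a lower difference, Mgst1, Prdx1 and Gpx8, beside 1.65% of all genes tested. The list median was -0.02, with 16 genes above zero and 18 below, and with the correction for GC content and length 0 were called. Prdx1 was not called in 13 and Gpx8 in 12 of the 15 fits that leave out a library. Mgst1, the microsomal glutathione transferase, had 4157, 4333, 3226 and 3752 normalized counts in preadipocytes on low-ratio milk, against 12765, 10047 and 6523 on high-ratio milk. In progenitors Mgst1 had 2309, 2273, 2325 and 2183 on low-ratio milk, against 2377, 2757, 2664 and 2438 on high-ratio milk. For Mgst1 the milks were apart in both populations, in the same order, and by much more in preadipocytes. Its difference was -1.13 ± 0.23 (log2 ± SE, limma adjusted p = 0.0241). It was not called without preadipocyte libraries 119 (adjusted p = 0.0512), 133 (0.0537), 1015 (0.0604) or 1017 (0.0696), or with the correction for GC content and length (0.0513).

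The genes with the largest differences lay mostly outside these groups. Dnah2, a heavy chain of axonemal dynein (chr11:69420809-69549110, minus strand, GRCm38), had 132, 66.1, 325 and 85.8 normalized counts in preadipocytes on low-ratio milk, against 20.6, 33.0 and 16.1 on high-ratio milk. In progenitors Dnah2 had 21.3, 53.5, 26.7 and 70.6 on low-ratio milk, against 205, 282, 181 and 187 on high-ratio milk. For Dnah2 the milks did not overlap in either population and lay in opposite order. Its difference was 4.86 ± 0.69 (log2 ± SE, limma adjusted p = 0.00498), from a milk effect of 2.44 in preadipocytes and -2.42 in progenitors. The authors' deposited table gives Dnah2 a log2 fold change of 2.67 in preadipocytes (adjusted p = 0.000119) and of -2.34 in progenitors (adjusted p = 1.13e-05).

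Donson, a protein of the replication fork (chr16:91676808-91688770, minus strand, GRCm38), had 155, 163, 138 and 119 normalized counts in preadipocytes on low-ratio milk, against 19.9, 33.4 and 32.1 on high-ratio milk. In progenitors Donson had 78.0, 49.6, 61.5 and 113 on low-ratio milk, against 101, 123, 153 and 147 on high-ratio milk. For Donson the milks were far apart in preadipocytes, and in progenitors they overlapped by library 133. Its difference was 3.16 ± 0.39 (log2 ± SE, limma adjusted p = 0.00242). Of 30 replication licensing genes it was 1 of 3 called, beside 2.28% of all genes tested. The others were Rfc1, higher, and Orc4, lower (not called in 11 and 9 of the 15 fits that leave out a library). The median of the list was 0.07.

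Rgl1, an exchange factor for Ral GTPases (chr1:152516760-152766351, minus strand, GRCm38), had 4392, 4234, 4955 and 5211 normalized counts in preadipocytes on low-ratio milk, against 3437, 3769.8 and 3524 on high-ratio milk. In progenitors Rgl1 had 4080.1, 4306, 5072 and 6038 on low-ratio milk, against 6954, 8136, 7683 and 7712 on high-ratio milk. For Rgl1 the milks were apart in both populations, in opposite order. Its difference was 1.05 ± 0.17 (log2 ± SE, limma adjusted p = 0.0101), while neither milk effect was called alone (0.39 in preadipocytes with adjusted p = 0.0632, and -0.66 in progenitors with adjusted p = 0.150). The authors' deposited table calls both, with a log2 fold change of 0.392 in preadipocytes (adjusted p = 0.0169) and of -0.645 in progenitors (adjusted p = 0.0035). Dnah2, Donson and Rgl1 were called whichever library was left out and with the correction for GC content and length (adjusted p = 0.0238, 0.0148 and 0.0332). With a block for library numbers Donson and Rgl1 were called and Dnah2 was not.

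Tep1, telomerase-associated protein 1, differed through the progenitors. It had 415, 619, 704 and 351 normalized counts in preadipocytes on low-ratio milk, against 753, 659.7 and 669 on high-ratio milk. In progenitors Tep1 had 1788, 1033, 1120.2 and 1094 on low-ratio milk, against 565, 547, 538 and 369 on high-ratio milk. For Tep1 the milks overlapped in preadipocytes and were apart in progenitors. Its difference was -1.76 ± 0.34 (log2 ± SE, limma adjusted p = 0.0197), from a milk effect of -0.46 in preadipocytes and 1.30 in progenitors, and it was not called without preadipocyte library 1015 on high-ratio milk (adjusted p = 0.0604).

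Psmc6, an ATPase of the proteasome (chr14:45329788-45349705, plus strand, GRCm38), had 1614, 1358, 1150.3 and 1445 normalized counts in preadipocytes on low-ratio milk, against 4657, 3323 and 2638 on high-ratio milk. In progenitors Psmc6 had 1375, 1469, 1118 and 1004 on low-ratio milk, against 1149, 945, 1064 and 1153 on high-ratio milk. For Psmc6 the milks were apart in preadipocytes and overlapped in progenitors. Its difference was -1.51 ± 0.25 (log2 ± SE, limma adjusted p = 0.0122). Calm2, a calmodulin gene, had a difference of -1.17 ± 0.15 (adjusted p = 0.00266). Psmc6 and Calm2 were called whichever library was left out and with the correction for GC content and length (adjusted p = 0.0332 and 0.0218). With a block for library numbers Calm2 was called and Psmc6 was not.

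Other genes among the 12 largest in each direction were, on the higher side, Ctnnd2, Foxj3, Zc3h12b, Tmem241, Fam210a, Phlpp1, Uhrf1bp1, Crim1 and Wdr81. On the lower side they were Vmn1r72, Arhgap15, Snhg14, Bc1, Zfp967, Pin4, Rpl24 and the mitochondrial serine transfer RNA mt-Ts1. On the higher side these calls were lost in 2 (Zc3h12b) to 14 (Uhrf1bp1) of the 15 fits that leave out a library. On the lower side mt-Ts1 was called in all 15, and the others were lost in 2 (Rpl24) to 13 (Vmn1r72).

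**Figure D4:**
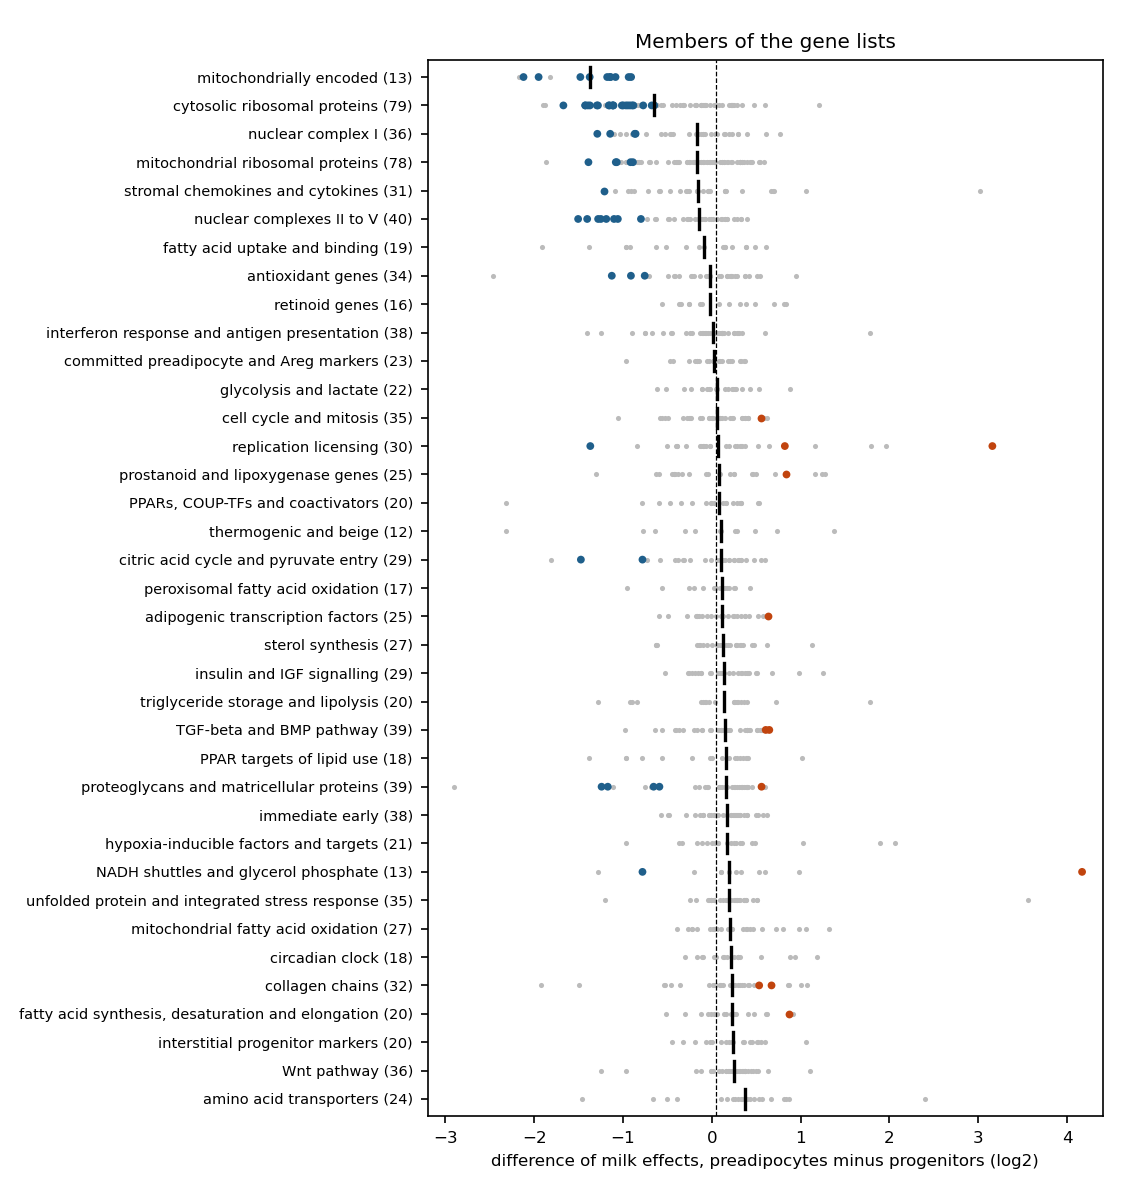
Difference of milk effects (log2, preadipocytes minus progenitors) of each tested member of the 37 gene lists, with the number tested in brackets, sorted by the list's median (black bar). Red and blue points are called members and grey points are not called, the dashed line is the median of all genes tested (0.05), and 1 entry, mt-Co2, lies beyond the axis. Calls gather in the mitochondrially encoded, ribosomal protein and respiratory chain lists.

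Other lists held 0 or 1 call, near the 2.28% of all genes tested. There was 1 call each among adipogenic transcription factors (1 of 25, Stat5b higher), stromal chemokines and cytokines (1 of 31, Ccl7 lower) and cell cycle genes (1 of 35, Ccnd3 higher). Stat5b was not called in 8, Ccl7 in 9 and Ccnd3 in 12 of the 15 fits that leave out a library. Interstitial progenitor markers, committed preadipocyte markers, thermogenic, Wnt, insulin and IGF, immediate early, stress response, interferon, hypoxia, glycolysis, clock and retinoid genes gave 0 calls each. Pparg, the central adipogenic receptor, had a difference of 0.33 ± 0.52 (limma adjusted p = 0.793), Pdgfra one of 0.36 ± 0.24 (adjusted p = 0.463) and Nr2f2 one of -0.60 ± 0.29 (adjusted p = 0.311).

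GC content moved with the difference of milk effects. With the genes tested split into 5 bins of equal size by the GC content of their transcripts, the median difference was -0.22, 0.02, 0.11, 0.14 and 0.13 from the bin of lowest GC content to the bin of highest. The lowest bin held 136 of the 254 genes with a lower difference and 3 of the 96 with a higher one. Preadipocyte libraries carried the pattern. In the lowest bin their median deviation from the midpoint of the milks was -0.10, -0.09, -0.11 and -0.12 on low-ratio milk, against 0.18, 0.15 and 0.06 on high-ratio milk. In progenitors it was 0.06, 0.03, -0.04 and 0.01 on low-ratio milk, against -0.03, 0.02, -0.02 and 0.07 on high-ratio milk. The milks were apart in preadipocytes, and library 1019 was the mildest of its group.

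With a correction of each library for GC content and length, 130 genes were called, 43 higher and 87 lower, of which 112 were among the 350. The correction also removes any true change that runs with GC content. Transcript length moved with the difference as well, with a median of -0.03 in the bin of shortest transcripts and 0.10 in the bin of longest, again of 5 bins. The part of GC content and length in the calls was not tested beyond this correction.

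**Figure D5:**
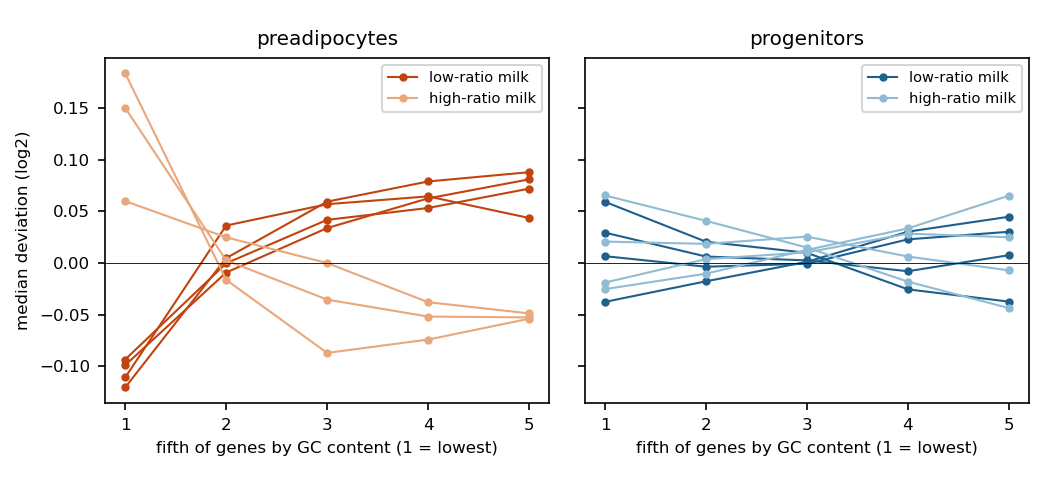
Median deviation of each library (log2, from the midpoint between the milk means of its population) in 5 equal bins of the genes tested by GC content, for preadipocytes (left) and progenitors (right). In preadipocytes the lines of the milks cross, with low-ratio milk below high-ratio milk in the lowest bin and above it in the highest, while in progenitors they mingle.

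Markers of the sorted cells and of other cells were read beside the calls. Of the 8 fibroblast and precursor markers 2 were called, Col1a1 higher and Lum lower, beside 2.28% of all genes tested. Their summed level was 6133779 to 7691291 normalized counts in preadipocytes on low-ratio milk, against 5081781 to 6121926 on high-ratio milk. In progenitors it was 7422635 to 9200705 on low-ratio milk, against 9265577 to 9662667 on high-ratio milk. The milks did not overlap in either population, though narrowly in both, and lay in opposite order. Col1a1, which had the same order, is part of this sum. Of the lists of endothelial, pericyte, macrophage, lymphocyte, neutrophil and mast cell, erythroid, Schwann, mesothelial, keratinocyte, muscle and adipocyte markers, 0 tested members were called. Only 2 lymphocyte, 2 keratinocyte, 3 neutrophil and mast cell and 1 mesothelial marker had enough counts to be tested. Of the mammary markers 0 were tested, so that list could give no call. The 9 endothelial markers had a median difference of -0.57, and their summed level was 9261 to 13406 normalized counts in preadipocytes on low-ratio milk, against 7071 to 9599.8 on high-ratio milk. In progenitors it was 12827 to 14859.5 on low-ratio milk, against 10051 to 14160.2 on high-ratio milk. The 8 macrophage markers tested had a median of -0.38, with sums of 519 to 1116 in preadipocytes on low-ratio milk, against 770.1 to 924 on high-ratio milk, and of 962 to 1599 in progenitors on low-ratio milk, against 867 to 1034 on high-ratio milk. Erythroid genes, mainly globins, summed to 1184 to 2283 in preadipocytes on low-ratio milk, against 1991 to 7669 on high-ratio milk. In progenitors they summed to 3104 to 12494 on low-ratio milk, against 5786 to 29655 on high-ratio milk. Adipocyte markers (4 tested) had a median of -0.65 and skeletal muscle markers (4 tested) one of -0.61, with all of them below zero. The adipocyte sum was 405 to 686 in preadipocytes on low-ratio milk, against 606 to 822 on high-ratio milk, and 279.9 to 644 in progenitors on low-ratio milk, against 306 to 473 on high-ratio milk. The muscle sum was 292 to 614 in preadipocytes on low-ratio milk, against 388 to 573 on high-ratio milk, and 1052 to 2429 in progenitors on low-ratio milk, against 1031 to 1486 on high-ratio milk. Schwann markers (5 tested, median -0.11) summed to 9560 to 10977 in preadipocytes on low-ratio milk, against 7654 to 8205 on high-ratio milk, without overlap. In progenitors the Schwann sum was 11321 to 14019 on low-ratio milk, against 11156 to 11894 on high-ratio milk. Of the last 3 lists Lep, Cidec and Retn (adipocyte), Myod1 and Pax7 (muscle) and Sox10 and Cdh19 (Schwann) stayed under the mean of 10 and were not tested. The part of these cells in the called genes was not tested.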

How the data were processed

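Polyadenylated RNA of flow-sorted cells was sequenced after library preparation with the NuGEN Universal Plus kit, per the labels' protocols. Among tools, the processing notes of the submitters list DESeq2 1.28.1 and Salmon 0.14.2, and as builds GRCm38 and mm10. The authors deposited 1 table per population, each normalized separately, with a value per gene and sample on a log2-like scale that fits a variance stabilizing transformation of normalized counts, and with their own log2 fold changes and p-values for the milks. Neither strand setting nor annotation release is stated in the labels.

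The deposited log2-like values were turned back into normalized counts from the floor of each table (7.123 for preadipocytes, 7.699 for progenitors). Differences of group means of the recovered values deviated from the authors' deposited log2 fold changes by a median of 0.003036 over 11076 preadipocyte genes and 0.000751 over 11164 progenitor genes with a mean of at least 100 in the table. Whole reads were not recovered, so no count model was used. Values were tested as log2(normalized count + 1), which understates the change of low genes, with limma 3.58.1 in R 4.3.3 (trend and robust variance, 1 mean per group, all 15 libraries). The contrast was the milk effect in preadipocytes less that in progenitors, with Benjamini-Hochberg adjustment over 15354 genes and a threshold of 0.05. A scaling of a whole table drops out of this contrast. Shares were tested with scipy 1.17.1. The limma test of the difference was also tried on simulated data, with means, spread and depth taken from these libraries. Of 100 genes given a log2 difference of 1, 28 were called, and of 100 given one of 2, 60 were. A difference of that size can thus go uncalled. Of the 21792 IDs in both tables, 21771 matched GENCODE M21 on GRCm38, which gave coordinates, GC content and transcript length.

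Genes named with values are the 12 largest called differences in each direction, up to 4 genes of smallest p per list, up to 3 highest markers per marker list and 10 preset genes. Other called list members, and genes called whichever library was left out, were added after their values were seen. Some genes are not reported here. The comparison, the lists and the rule were chosen with earlier results of these data known. The labels do not say whether libraries came from separate animals, so p-values measure the spread between libraries. That spread may be technical in part. Xist and Ddx3y differed between libraries of a group, as given below, and the source of the spread was not tested. The alternatives were other pseudocounts, filters, scalings and variance models, the deposited values as they stand, a GC and length correction, a block for library numbers and leaving out each library.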

Additional observations from a re-analysis of the deposited data

Results flagged for a closer look

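The milk effect differed between the populations, by the limma test of the difference itself, for each of the following genes described above, given as log2 differences. Among mitochondrially encoded genes it was -1.37 for mt-Cytb, -1.95 for mt-Atp8, -1.48 for mt-Nd4l, -2.12 for mt-Nd6, -1.08 for mt-Co1 and -1.14 for mt-Nd5. Among nuclear genes of the ribosomes and the respiratory chain it was -1.15 for Rps12, -1.11 for Rps3a1, -1.07 for Mrpl42, -1.29 for Ndufb3, -1.28 for Uqcrb and -1.50 for Cox7b. Among metabolic enzymes and carriers it was -1.47 for Mpc1, -0.78 for Mdh1, -1.13 for Mgst1, 4.17 for Gpd2, 0.86 for Fads2 and 0.84 for Ephx1. Among matrix genes it was -1.17 for Aspn, -0.65 for Lum, -0.59 for Postn and 0.67 for Col1a1. Among the other genes it was 4.86 for Dnah2, 3.16 for Donson, 1.05 for Rgl1, -1.51 for Psmc6, -1.17 for Calm2 and -1.76 for Tep1. Of these 28 genes, 16 were not called with a block for library numbers. Those not called with the GC and length correction include mt-Atp8, mt-Nd4l, mt-Nd6, mt-Co1, mt-Nd5, Aspn, Lum, Postn, Col1a1, Mgst1 and Gpd2. Some calls were also lost when a library was left out, and that of Gpd2 held in 3 of 15 such fits.

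A library stood far from the other 3 of its group in 10 of 120 groups of 4 examined, where chance gives about 1 in 20. Preadipocytes on high-ratio milk, with 3 libraries, were outside this check. Among preadipocytes on low-ratio milk, library 114 was highest with 187055 normalized counts of mt-Cytb and 25471 of Rps3a1, and library 133 was highest with 2543 of Fads2. Among progenitors on low-ratio milk, library 133 stood apart with 447 of Ndufb3, library 108 with 1788 of Tep1, and library 119 with a ribosomal protein share of 1.95%. Among progenitors on high-ratio milk, library 1017 stood apart with 1117 of Mdh1 and 93.7 of mt-Co2, and library 1019 with 369 of Tep1 and 5917 of Xist.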

How the results depend on the processing

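The count of 350 genes (96 higher, 254 lower) was 130 (43 and 87) with the GC and length correction, 153 (27 and 126) without the variance trend and robust fit, and 669 (228 and 441) with array weights. With the deposited values as they stand 386 genes were lower. Other pseudocounts, filters and scalings, and each table fitted alone, kept the total within 1.5 times of 350. The preadipocyte count of 1264 was 1968 with array weights and 465 with each table fitted alone. Leaving out 1 library, or a library number in both populations, gave 22 to 846 genes in all, 3 to 304 higher and 19 to 542 lower, 329 to 1808 for preadipocytes and 0 to 2 for progenitors. The difference of shares was then -3.58 to -2.97 percentage points for mitochondrially encoded genes and -1.54 to -0.996 for ribosomal protein genes. Of 1332 medians of lists under the alternatives, 1309 moved by less than the spread. The cause of these changes was not tested. Estimated depth was lowest in preadipocyte library 1015 on high-ratio milk, at 13.8 M reads, although that estimate is uncertain.

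Library numbers recur in both populations. The correlation of same-numbered libraries' deviations was between -0.0594 and 0.0910, and 2 of 7 numbers (133 and 1015) correlated best with their own. The main limma test did not take the numbers as pairs, although the exact tests of the shares did. Correlations this low do not show that same-numbered libraries have separate sources. Xist and Ddx3y ran with the number in part, as given below, and a shared source was not tested. With the replicate block 43 genes were called, 8 higher and 35 lower, of which 39 were among the 350. Of the 28 called genes described with values, 12 were called under the block: mt-Cytb, mt-Atp8, mt-Nd4l, mt-Nd5, mt-Nd6, mt-Co1, Rps12, Rps3a1, Aspn, Donson, Rgl1 and Calm2. The 16 not called under it were Col1a1, Cox7b, Dnah2, Ephx1, Fads2, Gpd2, Lum, Mdh1, Mgst1, Mpc1, Mrpl42, Ndufb3, Postn, Psmc6, Tep1 and Uqcrb. With the block and the GC and length correction together 0 were called, 0 higher and 0 lower.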

Other observations

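Complete separation of the milks in both populations, in opposite order, was seen for few genes. Low-ratio milk lay above high-ratio milk in every preadipocyte library and below it in every progenitor library for 41 genes (0.267% of those tested), of which 19 were called. They include Foxj3, a forkhead transcription factor, Stk38, a kinase, and Nid1, a basement membrane protein. The other order was seen for 45 genes (0.293%), of which 31 were called. They include the mitochondrial transfer RNA genes mt-Ts1 and mt-Tl1, Eif2s2, a subunit of a translation initiation factor, and Ube3a, a ubiquitin ligase. Whether reads at the transfer RNA genes came from longer mitochondrial transcripts was not tested.

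Xist, transcribed from the inactive X chromosome of females, had 3158, 1812, 757 and 432 normalized counts in preadipocytes on low-ratio milk, against 4041, 3309 and 5425 on high-ratio milk. In progenitors it had 2403, 3065, 1136 and 575 on low-ratio milk, against 1807, 1703, 1863 and 5917 on high-ratio milk. The milks were apart in preadipocytes and overlapped in progenitors, and its difference of milk effects was not called (limma adjusted p = 0.562). Ddx3y, a gene of the Y chromosome, had 838, 1153, 1564 and 1766 in preadipocytes on low-ratio milk, against 1357, 2019 and 492 on high-ratio milk. In progenitors it had 895, 821, 1536 and 1797 on low-ratio milk, against 653, 983, 852 and 327 on high-ratio milk. Its difference was not called either (adjusted p = 0.636). Both genes were above 0 in all 15 libraries, with library 133 lowest and 1019 highest for Xist in both populations. The part of sex in the called genes was not tested.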
